A study of Mus musculus with 4 samples.

Results

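Genes of fat cells, of lipid storage and of fatty acid synthesis were measured in mouse endometriotic lesions, in which endometrium-like tissue grows outside the womb. The 40 genes were listed by symbol as fat-cell and lipid genes, and each is given by the brightest probe set that carries its symbol alone. Of these, 36 had such a probe set, among 18193 genes with 1 symbol, and Cfd, Plin1, Adrb3 and Soat1 were not analysed here. They fall into 9 genes largely restricted to adipocytes, of which 6 were measured, and 31 general lipid genes, of which 30 were measured. Lesion RNA was hybridised to 4 Affymetrix arrays, 2 for mice fed casein diet, the control of the series, and 2 for mice fed high-fat diet, here called casein 1 and 2 and high-fat 1 and 2. All mice carried lesions, whereas strain, age, lesion source, diet composition, feeding time and the number of animals behind an array were all not given in the sources used here. P-values here thus describe only how these 4 samples vary, which may be technical. Values are intensities, a linear brightness as the authors deposited it, and a difference is the mean log2 intensity of the high-fat arrays less that of the casein arrays, with its standard error (SE, 2 arrays per diet).

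Adipocytes store fatty acids as triglyceride in a lipid droplet. Fatty acids reach the cell from circulating lipoproteins, cut by lipoprotein lipase on the capillary wall, or are made from acetyl-CoA, and are joined to glycerol before they enter the droplet. Perilipins coat the droplet and control the lipases that empty it, and the transcription factors PPARgamma and C/EBPalpha switch on most of these genes in fat cells. Macrophages, endothelial cells, muscle and epithelia use many of the same uptake and droplet proteins, so few of the genes mark fat cells alone. The endometriotic lesion grows on peritoneal surfaces, which lie next to fat.

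Promoter sequences are shown for Plin2 and Hilpda, droplet protein genes whose high-fat arrays both exceeded the casein arrays, and for Adipoq, a fat-cell gene whose high-fat arrays lay at opposite ends. Each is the 250 bases before the RefSeq start (GRCm38.p6), read 5′ to 3′ on the gene's strand, at chr4:86670060-86670309 (minus strand), chr6:29272376-29272625 (plus strand, the start of 2 with a match) and chr16:23146286-23146535 (plus strand). Capitals mark AGGTCA, the half-site bound by PPAR and other nuclear receptors, and ACGTG, a core bound by hypoxia-inducible factors, on either strand, and the Adipoq window holds neither.
Plin2: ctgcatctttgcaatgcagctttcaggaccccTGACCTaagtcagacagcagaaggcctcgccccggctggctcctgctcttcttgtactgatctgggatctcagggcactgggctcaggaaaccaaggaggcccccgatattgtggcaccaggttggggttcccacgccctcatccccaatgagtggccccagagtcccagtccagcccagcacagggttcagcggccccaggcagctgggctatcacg
Hilpda: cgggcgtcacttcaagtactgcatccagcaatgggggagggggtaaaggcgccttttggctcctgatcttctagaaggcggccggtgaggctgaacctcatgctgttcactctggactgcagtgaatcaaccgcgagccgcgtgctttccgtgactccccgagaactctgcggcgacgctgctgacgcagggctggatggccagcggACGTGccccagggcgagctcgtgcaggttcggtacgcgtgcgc
Adipoq: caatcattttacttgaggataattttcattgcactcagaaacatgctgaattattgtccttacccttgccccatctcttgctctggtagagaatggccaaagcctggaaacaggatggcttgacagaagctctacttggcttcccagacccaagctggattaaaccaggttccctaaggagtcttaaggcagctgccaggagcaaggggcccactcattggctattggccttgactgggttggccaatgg
Of the 40 genes, 29 were in the promoter table, with 37 start sites. AGGTCA was present before 10 of these 37 starts, in 8 genes, and in 14.0% of all 32851 windows. ACGTG was present before 6, in 5 genes, and in 16.6% of all windows, and CACGTG, which contains ACGTG, before 2 and in 6.02%. The DR1 repeat of AGGTCA, with 1 free base between copies, and the sterol element TCACCCCAC were found before 0 of 37 (0.0335% and 0.496% of all windows). A match is a description of these letters and not a bound site.

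Of 31 members tested with limma, 0 had a Benjamini-Hochberg adjusted p under 0.05 (0% of all 12797 genes tested, smallest 0.823). An unadjusted p under 0.05 was found for 636 genes, among them 5 members with larger values on high-fat diet, Car3, Fabp4, Plin2, Fabp5 and Hilpda (2.24% of all genes tested), and 0 with smaller values (2.73%). Of the 31, 20 had a difference above 0 (48.6% of all genes tested). The 5 members Lep, Cidea, Cidec, Aqp7 and Pck1 had a mean intensity under 33.9 and are given as values without a test. The diets did not overlap in 10 members that were higher in both high-fat arrays (16.6% of all genes tested) and in 3 that were lower in both (19.3%). Leaving out an array can only keep or raise these counts, because fewer arrays leave fewer chances to overlap. Without casein 2 or without high-fat 1 there were 18 higher, and without high-fat 2 there were 13 lower. The matching shares over all genes were not computed. An exact two-sided permutation test of a single value could not give a p below 0.333 with these 4 arrays.

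**Figure D1:**
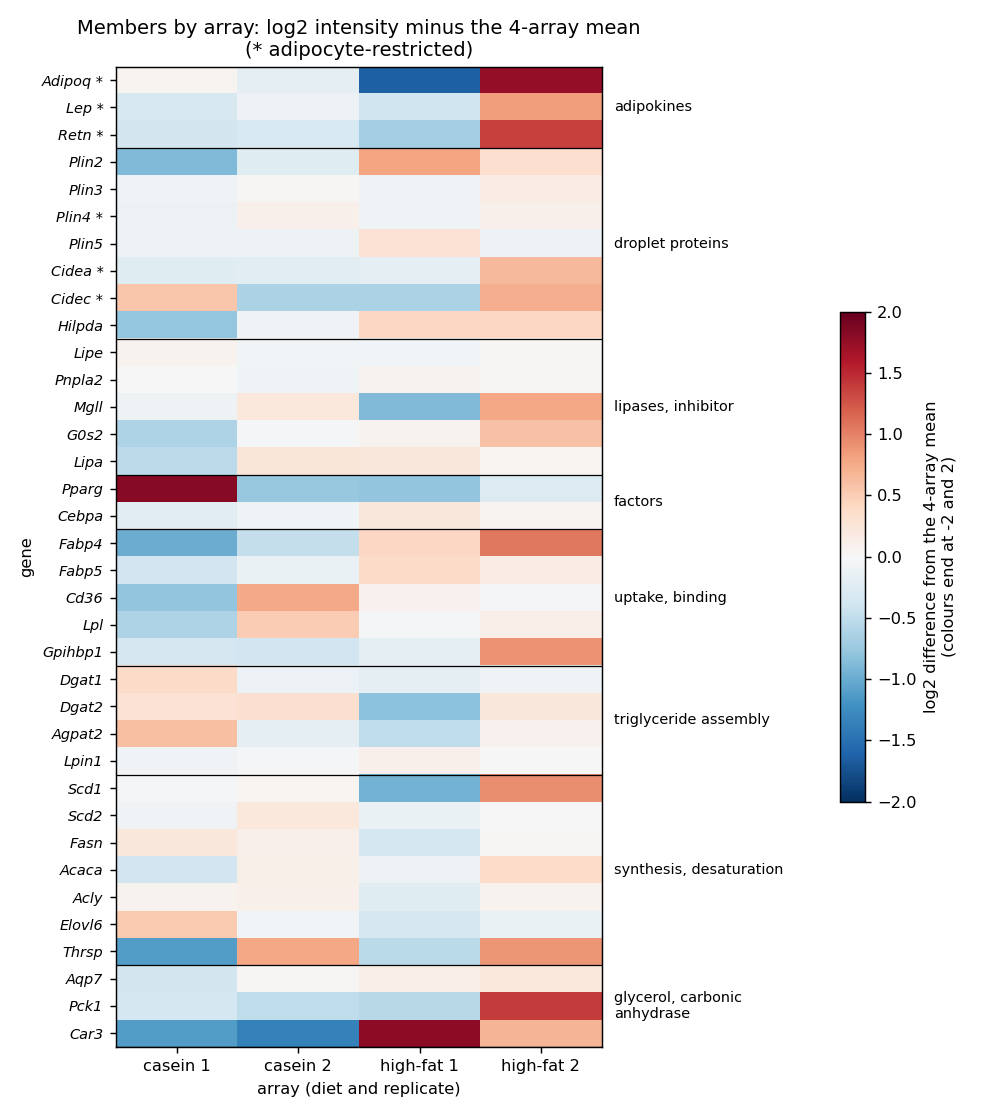
Each row is a member and each column an array, and colour gives log2 intensity minus the gene's 4-array mean, ending at -2 and 2. All 6 adipocyte-restricted genes (asterisks) are highest in high-fat 2, whereas Plin2, Hilpda, Fabp4, Fabp5 and Car3 are red in both high-fat arrays.

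Markers of other tissues differed between the arrays. All 10 endometrial stroma and all 10 endometrial epithelium markers reached the filter on low values. The summed intensity of 12 skeletal muscle markers was 30116 in high-fat 1 and 867 to 1094 in the other arrays. The sum of 8 gastric surface markers was 64985 in casein 1, 9941 in casein 2, and 382 and 392 in the high-fat arrays. The 8 smooth muscle markers summed to 22658 to 27026 in the casein arrays and 14143 to 16641 in the high-fat arrays. The 7 mesothelium markers summed to 1710 to 6102 and 736 to 1283. Of that sum, Krt19 alone read 5236 and 1053 in the casein arrays and 261 and 772 in the high-fat arrays. Of the 7 mesothelium markers, 1 had a difference above 0 (49.7% of all genes on the arrays) and 6 below. In casein 1 the sums of the 7 liver, 7 pancreas and 8 intestine markers were 906, 1665 and 3766. They were 197, 400 and 515 in casein 2, and at most 235, 389 and 381 in the high-fat arrays. Of these markers, 4 liver, 3 pancreas and 3 intestine genes were under the filter in every array. Cela1 alone read 1443 of the pancreas sum in casein 1. In bulk RNA, fewer cells of a type and less RNA per cell cannot be told apart, and the part of these tissues in the values below was not tested except where a value is given.

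Of 6 adipocyte-restricted genes measured, the diets overlapped in 5, all but Cidea. Overlap was the usual case, as the diets did not overlap in 16.6% (higher) and 19.3% (lower) of all genes tested. The adipocyte-restricted genes were highest in high-fat 2 for 6 of 6 measured genes (23.6% of all genes on the arrays) and lowest in high-fat 1 for 3 (28.2%). Adipoq, which encodes the insulin-sensitising hormone adiponectin, read 107 and 91.4 in the casein arrays and 33.1 and 348 in the high-fat arrays. The casein arrays lay between the high-fat arrays, of which high-fat 1 was just under the filter of 33.9, and the diet difference was 0.12 (SE 1.24, 95% interval -3.39 to 3.62). Retn, the gene of the adipokine resistin, read 104 and 110 in the casein arrays and 83.8 and 346 in the high-fat arrays. Its high-fat arrays again bracketed the casein arrays (difference 0.67, SE 0.75). Lep, which encodes the satiety hormone leptin, read 9.60 and 11.1 in the casein arrays and 9.16 and 21.6 in the high-fat arrays, all under the filter. Without high-fat 2 the differences of Adipoq, Retn and Lep were -1.58, -0.35 and -0.17, and without high-fat 1 they were 1.82, 1.70 and 1.07.

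The 3 droplet protein genes of this class varied within the diets or hardly at all. Cidea, a droplet fusion protein of brown fat, read 11.6 and 11.9 in the casein arrays and 12.1 and 21.6 in the high-fat arrays. Its groups did not overlap, though high-fat 1 lay close to the casein arrays and all 4 values were under the filter. Cidec, the corresponding protein of white fat, read 49.1 and 21.6 in the casein arrays and 21.6 and 55.4 in the high-fat arrays, high in 1 array of each diet. Plin4, a perilipin of nascent droplets, was nearly flat, at 113 and 131 in the casein arrays and 116 and 133 in the high-fat arrays (difference 0.02, SE 0.14). The median difference of the 6 genes was 0.28, against -0.0009 for all genes on the arrays. It was -0.26 without high-fat 2 and 0.97 without high-fat 1, so the sign of the median turned on which high-fat array was used. The summed intensity of the 6 genes was 395 and 377 in the casein arrays and 276 and 925 in the high-fat arrays.

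**Figure D2:**
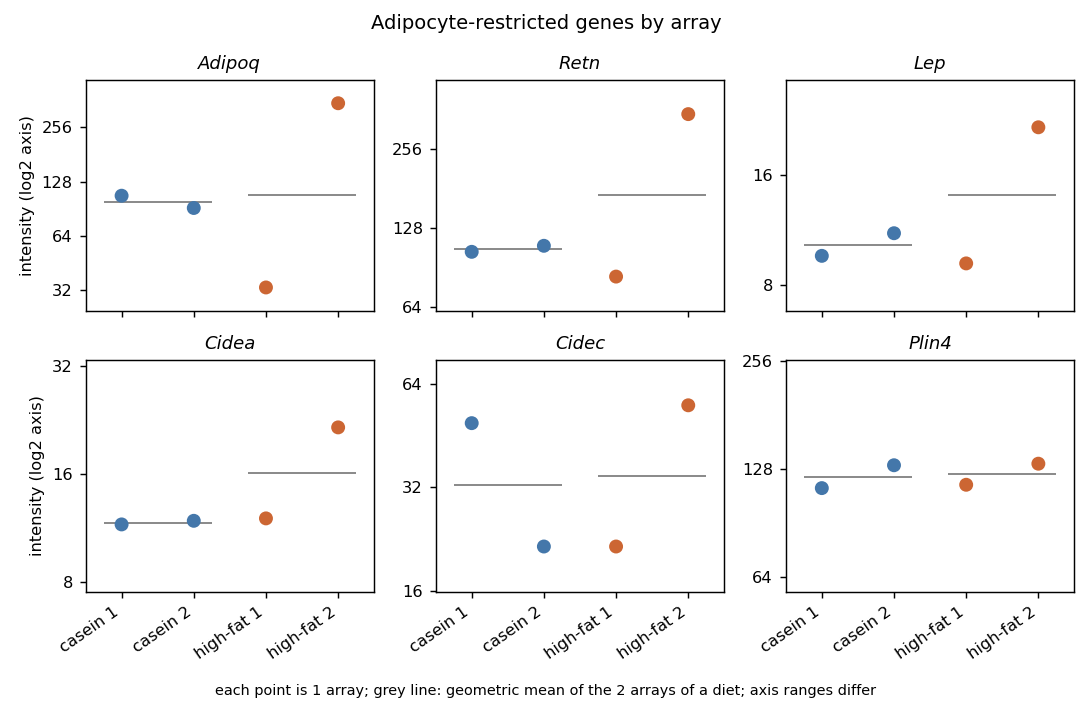
Intensity on a log2 axis for each adipocyte-restricted gene measured, 1 point per array, with a grey line at the geometric mean of each diet. High-fat 2 is the highest point in all 6 panels, and for Adipoq, Retn and Lep high-fat 1 is the lowest.

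Among the 30 general lipid members the order of the high-fat arrays was mixed, with high-fat 2 above high-fat 1 in 20 and below it in 10, Plin2, Fabp5, Cd36 and Car3 among them. Over all members, high-fat 2 exceeded high-fat 1 by over 1 log2 for 10 of the 36 members (1.82% of all genes on the arrays), and the reverse held for 1, Car3 (1.06%). The casein arrays lay over 1 log2 apart for 5 members (3.96%). Besides Adipoq, Retn, Lep and Cidec, the 10 were Pck1, Scd1, Mgll, Thrsp, Gpihbp1 and Dgat2. Scd1, Mgll and Thrsp are singled out here after their values were seen. Pck1, the phosphoenolpyruvate carboxykinase that supplies glycerol for triglyceride in fat and glucose in liver, read 10.04 and 9.05 in the casein arrays and 8.75 and 33.7 in the high-fat arrays. Only high-fat 2 stood out, and all 4 values lay under the filter. Scd1, the stearoyl-CoA desaturase that makes monounsaturated fatty acids, read 633 and 657 in the casein arrays and 332 and 1218 in the high-fat arrays. Its high-fat arrays lay on either side of closely matched casein arrays, and the diet difference was -0.02 (SE 0.69), or -0.96 without high-fat 2 and 0.92 without high-fat 1. Scd2, the desaturase of most other tissues, was more even, at 3467 and 4242 in the casein arrays and 3329 and 3661 in the high-fat arrays. Mgll, which cleaves the last fatty acid from monoglycerides, read 261 and 326 in the casein arrays and 153 and 479 in the high-fat arrays.

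Further adipocyte genes, from a list of 20 that holds none of the members, were less uniform. Of 18 measured, 9 were highest in high-fat 2 (23.6% of all genes on the arrays). Of the 12 tested, 0 passed, 7 were above 0 (48.6% of all genes tested) and 5 below. Their median was 0.06, against -0.0051 for all genes tested. The list median was -0.12 without casein 1 and 0.35 without casein 2. Ces1d, a carboxylesterase of fat and liver, read 141 and 429 in the casein arrays and 89.9 and 496 in the high-fat arrays, and it was chosen after its values were seen. The 4 tested genes with the smallest unadjusted p were Lgals12, a galectin of fat-cell droplets (difference -0.44, SE 0.11), Mrap, an accessory protein of the ACTH receptor (0.35, SE 0.09), Orm1, an acute-phase glycoprotein gene (0.37, SE 0.09) and the apolipoprotein gene Apoc1 (0.80, SE 0.28). Lgals12 read 47.9 and 43.0 in the casein arrays and 33.6 in both high-fat arrays, under the filter of 33.9. Mrap read 33.5 and 32.1 in the casein arrays, also under it, and 41.0 and 42.7 in the high-fat arrays. Orm1 lay between 42.7 and 57.1 in the 4 arrays, and Apoc1 between 39.0 and 95.7. Of 9 measured genes of brown and beige fat, Ucp1, the uncoupling protein that defines brown fat, had an intensity of 8.93 to 9.72 in the 4 arrays. Of the 5 tested in that list 0 passed, 2 were higher (48.6% of all genes tested) and 3 lower. The 2 higher were Cox7a1 and Cox8b. Cox7a1 read 99.6 in high-fat 1 and at most 27.6 in the other arrays. Cox8b, a cytochrome oxidase subunit of brown fat and striated muscle, had an intensity of 285 in high-fat 1, the array with high skeletal muscle markers, and at most 38.9 elsewhere. Dio2, a thyroid hormone-activating deiodinase, differed by -0.56 (SE 0.19).

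Plin2 and Hilpda, droplet protein genes used by many cell types, had larger values in both high-fat arrays. Plin2, the perilipin that coats droplets in macrophages and most other cells, read 1244 and 1922 in the casein arrays and 3959 and 2871 in the high-fat arrays. Both high-fat arrays exceeded both casein arrays, and the difference was 1.12 (2.18-fold, SE 0.30, unadjusted p = 0.0211, limma adjusted p = 0.863). Leaving out single arrays moved it between 0.81 and 1.44. Hilpda, a hypoxia-induced droplet protein that inhibits adipose triglyceride lipase, read 108 and 176 in the casein arrays and 247 and 245 in the high-fat arrays (difference 0.84, SE 0.27, unadjusted p = 0.0399). The high-fat arrays were nearly equal here and the casein arrays were not, so the difference was 0.48 without casein 1 and 1.19 without casein 2. Plin2 and Hilpda were highest in high-fat 1, the array with the lowest Adipoq, Retn and Lep. Plin3, a perilipin of small droplets, and Plin5, a perilipin of oxidative tissues, differed by 0.07 (SE 0.13) and 0.20 (SE 0.17).

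**Figure D3:**
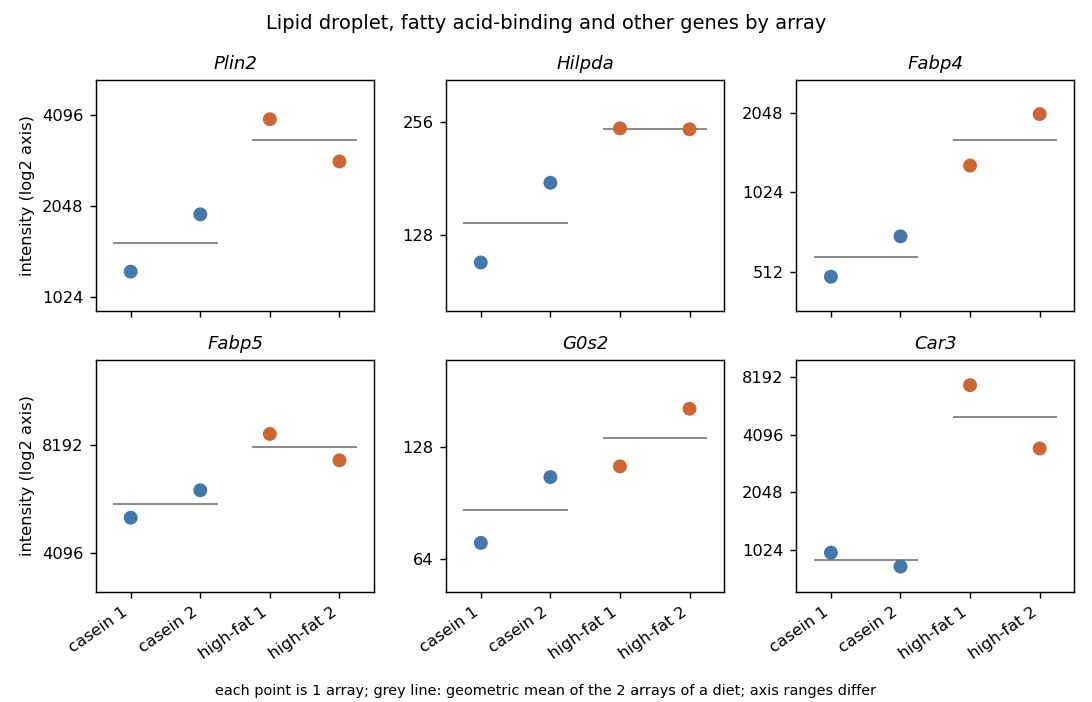
Intensity on a log2 axis for 6 members, 1 point per array, with a grey line at the geometric mean of each diet. Both high-fat points lie above both casein points in each panel, and the gap is narrowest for G0s2 (106 against 114).

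Fatty acid-binding proteins showed the same arrangement. Fabp4, the fatty acid chaperone of adipocytes, macrophages and capillary endothelium, read 490 and 697 in the casein arrays and 1292 and 2026 in the high-fat arrays. Its groups did not overlap, and it differed by 1.47 (2.77-fold, SE 0.31, unadjusted p = 0.0104, limma adjusted p = 0.863), and between 1.15 and 1.80 with single arrays left out. All 4 probe sets of Fabp4 had groups that did not overlap, and the other 3 differed by 1.42, 0.97 and 0.95. Fabp5, the related chaperone of epithelia and macrophages, read 5151 and 6142 in the casein arrays and 8816 and 7443 in the high-fat arrays (difference 0.53, SE 0.16, unadjusted p = 0.0298). Beside these values, 11 of 12 macrophage markers had a difference above 0 (48.6% of all genes tested), with a median of 0.21. Of the 12, 3 were higher in both high-fat arrays and 1 was lower in both (16.6% and 19.3% of all genes tested). The macrophage markers summed to 16434 and 15777 in the casein arrays and 20926 and 16873 in the high-fat arrays, highest in high-fat 1. All 12 endothelial markers had a difference above 0 (48.6% of all genes tested), with a median of 0.52. Of these, 10 were higher in both high-fat arrays (16.6% of all genes tested). The endothelial sums were 2684 to 5362 in the casein arrays and 4668 to 6026 in the high-fat arrays. In those sums Sox17 alone read 544 and 2594 in the casein arrays and 1270 and 2391 in the high-fat arrays. The part of either cell type in Plin2, Fabp4 and Fabp5 was not tested.

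The genes for fatty acid uptake from lipoproteins varied within diets. Gpihbp1, which anchors lipoprotein lipase on capillary endothelium, read 124 and 120 in the casein arrays and 137 and 292 in the high-fat arrays. The groups did not overlap, but the difference of 0.71 (SE 0.41) was 0.17 without high-fat 2 and 1.26 without high-fat 1. The next values are of genes chosen after they were seen. Lpl, lipoprotein lipase itself, read 2319 and 5057 in the casein arrays and 3464 and 3901 in the high-fat arrays. Cd36, a fatty acid transporter and scavenger receptor, read 407 and 1190 in the casein arrays and 748 and 686 in the high-fat arrays. In both genes the casein arrays bracketed the high-fat arrays, with differences of 0.10 (SE 0.42) and 0.04 (SE 0.57). Leaving out casein 1 turned these to -0.46 and -0.73, and leaving out casein 2 gave 0.66 and 0.82.

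Car3 had the largest difference of the members. It encodes a carbonic anhydrase abundant in fat and in slow skeletal muscle, and it read 994 and 842 in the casein arrays and 7414 and 3467 in the high-fat arrays. Both high-fat arrays were above the casein arrays (difference 2.47, 5.54-fold, SE 0.42, 95% interval 1.29 to 3.65, unadjusted p = 0.00474, limma adjusted p = 0.856). All 4 probe sets had groups that did not overlap. In high-fat 1, with the higher value, skeletal muscle markers summed to 30116. In high-fat 2 they summed to 983, within the casein range of 867 to 1094. Of the 11 muscle markers tested, 6 were higher in both high-fat arrays than in the casein arrays (16.6% of all genes tested). Ckm, Tnnt3, Actn3, Acta1 and Tnni2 overlapped between the diets. The smallest unadjusted p values were those of Myh1, a fast muscle myosin, and Ttn, the sarcomere protein titin. Myh1 read 7.07 and 11.2 in the casein arrays and 4311 and 30.8 in the high-fat arrays, and Ttn 19.2 and 16.7 against 4053 and 43.6. Among the 6, Pvalb read 31.8 and 33.2 in the casein arrays and 1620 and 33.5 in the high-fat arrays. Without high-fat 1 the difference of Car3 was 1.92, and the part of muscle in it was not tested. Aqp7, a glycerol channel of fat, had intensities of 6.27 to 9.34, under the filter in every array.

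The differences of the lipase genes were small, but not all were precise. Pnpla2, the adipose triglyceride lipase, differed by 0.09 (SE 0.10) and Lipe, the hormone-sensitive lipase, by -0.02 (SE 0.10), with intensities of 135 to 150 and 71.7 to 77.7 over the 4 arrays. The lysosomal acid lipase gene Lipa differed by 0.27 (SE 0.30), and was lowest in casein 1, at 604 against 886 to 1027 in the other arrays. G0s2, an inhibitor of adipose triglyceride lipase, read 70.9 and 106 in the casein arrays and 114 and 162 in the high-fat arrays. Its groups did not overlap, by a narrow margin, and it differed by 0.64 (SE 0.30, unadjusted p = 0.0984), and between 0.35 and 0.94 with single arrays left out.

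The 2 adipogenic transcription factors differed in pattern. Pparg, the gene of PPARgamma, read 303 and 51.3 in the casein arrays and 49.9 and 71.4 in the high-fat arrays. Only casein 1 was high, the array with the highest gastric and intestinal marker sums (64985 and 3766). The difference was -1.06 (SE 0.95), or 0.22 without casein 1 and -2.35 without casein 2. The part of those tissues in this value was not tested. Cebpa, the gene of C/EBPalpha, read 182 and 198 in the casein arrays and 247 and 220 in the high-fat arrays (difference 0.29, SE 0.12, unadjusted p = 0.0690). Of 16 other adipogenic and lipogenic regulators tested, 0 passed, 11 were higher (48.6% of all genes tested) and 5 lower. Their median was 0.17, or 0.04 without casein 1 and 0.36 without casein 2. Those with the smallest unadjusted p were Nr1h3, the oxysterol receptor LXRalpha (0.55, SE 0.16), Pdgfra, a receptor of fibroblasts and fat-cell precursors (0.61, SE 0.18), the fat-cell and B cell factor Ebf1 (0.76, SE 0.23) and Dlk1, a preadipocyte surface protein (0.25, SE 0.12).

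Of 11 members for triglyceride assembly and fatty acid synthesis, 8 had a difference below 0, and 0 passed the test. Over all genes tested, 48.6% had a difference above 0. Dgat2, which adds the last fatty acid of triglyceride, read 550 and 567 in the casein arrays and 255 and 528 in the high-fat arrays. Its difference of -0.60 (SE 0.39) was -0.08 without high-fat 1 and -1.13 without high-fat 2. The other acyltransferase genes Dgat1 and Agpat2 differed by -0.26 (SE 0.20) and -0.42 (SE 0.37), and Lpin1, a phosphatidate phosphatase, by 0.12 (SE 0.10). In fatty acid synthesis 5 of 7 members were lower, with a median of -0.14. Fasn, fatty acid synthase, read 548 and 504 in the casein arrays and 366 and 473 in the high-fat arrays (difference -0.34, SE 0.17), and Elovl6, a fatty acid elongase, 319 and 215 against 177 and 204 (-0.46, SE 0.24). In both genes the groups did not overlap, with casein 1 the highest. Beside these values, 1 of 10 endometrial epithelium markers had a difference above 0 (48.6% of all genes tested) and 9 below. Both high-fat arrays were lower in 5 (19.3% of all genes tested), while Krt18, Ltf, Foxa2, Msx1 and Pax8 overlapped. The 10 summed to 18399 to 23875 in the casein arrays and 8312 to 12262 in the high-fat arrays. Krt8 alone read 10010 and 2729 in the casein arrays and 1080 and 1796 in the high-fat arrays. Casein 1 also had the highest gastric surface sum, at 64985. The part of either tissue was not tested. Acly, ATP citrate lyase, and Acaca, acetyl-CoA carboxylase, differed by -0.17 (SE 0.15) and 0.26 (SE 0.26). Thrsp, a lipogenic regulator, read 130 and 485 in the casein arrays and 195 and 524 in the high-fat arrays, high in replicate 2 of each diet (difference 0.35, SE 0.87). Of 21 other genes of fatty acid and triglyceride synthesis tested, 0 passed, 6 were higher (48.6% of all genes tested) and 15 lower. Their median was -0.17, or -0.05 without casein 1 and -0.43 without casein 2. The groups did not overlap in 0 that were higher and 6 that were lower (16.6% and 19.3% of all genes tested). Among the lower was Mogat2, an intestinal monoacylglycerol acyltransferase (-0.82, SE 0.26).

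Of 23 other genes of the droplet, of lipases and of uptake tested, 0 passed, 14 were higher (48.6% of all genes tested) and 9 lower. Their median was 0.03, or 0.21 without casein 2 and 0.04 without high-fat 2. Of the 23, the groups did not overlap in 9 that were higher and 2 that were lower (16.6% and 19.3% of all genes tested). The 4 genes named here had the smallest unadjusted p of the list. Apoc2, the cofactor of lipoprotein lipase, read 95.4 and 81.8 in the casein arrays and 462 and 358 in the high-fat arrays (difference 2.20, SE 0.18, unadjusted p = 0.00034, limma adjusted p = 0.849). Mest, a gene that marks expanding fat, Bscl2, the droplet-forming protein seipin, and Nceh1, a macrophage cholesterol ester hydrolase, differed by 0.61 (SE 0.19), 0.31 (SE 0.10) and 0.48 (SE 0.16). Over all general lipid members the median difference was 0.11, with 19 of 30 above 0 (49.7% of all genes on the arrays). It was 0.02 without high-fat 2 and 0.28 without casein 2.

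**Figure D4:**
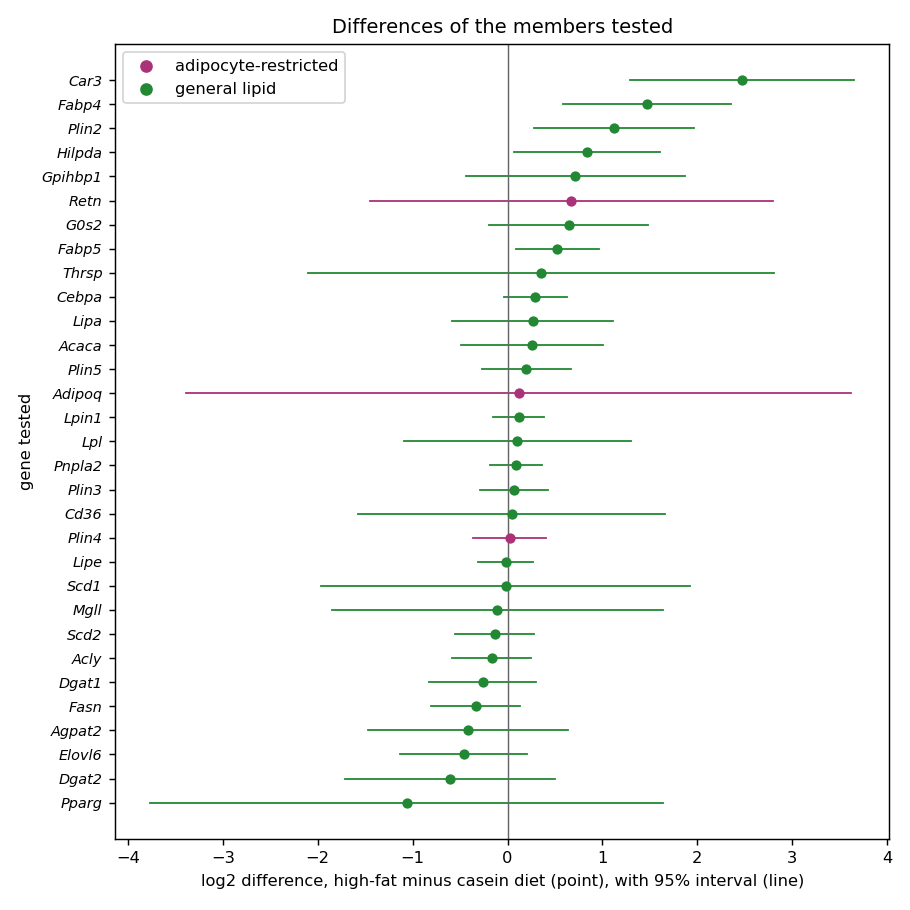
Log2 difference of each of the 31 members tested, high-fat minus casein diet, with its 95% interval from limma. The intervals of Car3, Fabp4, Plin2, Hilpda and Fabp5 lie above 0 before adjustment, and those of Adipoq and Pparg are the widest.

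In 21 members with several probe sets, 19 of 24 other probe sets that reached the filter had the sign of the brightest one. The 5 exceptions belonged to Cd36, Lpl, Scd1, Scd2 and Acly, whose differences lay between -0.17 and 0.10. Fabp5, Dgat2 and Car3 had the same sign in every probe set, and the 15 remaining members, Adipoq, Retn, Plin2, Hilpda and Pparg among them, had a single probe set.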

How the data were processed

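Lesion RNA of 4 samples was biotin-labelled and hybridised to Affymetrix arrays, per the labels' protocols. The authors deposited a linear intensity for each probe set, with similar medians over the arrays (55.1 to 56.5). The tools named are GCOS and RMA, per the submitters' processing notes, with version and order not given in the sources used here. Log2 values, the usual output of RMA, had been assumed in the design, so log2 was taken first, with no pseudocount. RMA as usually run scales arrays to each other, which hides any change common to most genes, and neither detection calls nor scan batches were used.

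Of 45101 probe sets, 34945 had 1 gene symbol in the platform's annotation. The brightest (highest mean log2) represented each of 18193 genes, and 12797 genes at or above the 40th percentile of non-control probe sets (intensity 33.9) were tested. Sample titles gave the groups. Diets were compared by limma 3.58.1 under R 4.3.3 (lmFit, then eBayes; two-sided; Benjamini-Hochberg over all genes tested), a script tested on simulated data. Having 2 arrays per diet limits precision. Class and list medians carry no test.

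The members, lists and classes were chosen with earlier results of these data known. Every array value is given for adipocyte-restricted members and for general lipid members with a difference of at least 0.5 log2 or, at an unadjusted p under 0.05, groups that did not overlap, and up to 4 genes are named per pathway list. The motifs AGGTCA and ACGTG were added after the data were examined. Promoters are from RefSeq. Replicate numbers give no pairing beyond the number itself. Alternatives were a replicate block, other normalisations, filters, probe set choices and variance models, a pseudocount, changed classes and leaving out each array. Figures were drawn with matplotlib 3.10.9.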

Additional observations from a re-analysis of the deposited data

How the results depend on the processing

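No member passed limma's test under any setting run. Of 36 members, 33 kept the sign of their difference in the settings other than leaving out an array. The block, the filters and the variance models left each difference unchanged by design. Only the normalisations, probe set choices and pseudocount could therefore turn a sign. Of the 33, 20 also kept it whichever array was left out, among them Plin2, Fabp4, Fabp5, Hilpda, G0s2 and Car3. The extremes when 1 array was left out had opposite signs, and came from leaving out a high-fat array for Adipoq (-1.58 to 1.82), Lep (-0.17 to 1.07), Retn (-0.35 to 1.70), Plin3 (-0.040 to 0.18), Cidec (-0.59 to 0.77), Mgll (-0.93 to 0.72), Scd1 (-0.96 to 0.92) and Pck1 (-0.12 to 1.82), and a casein array for Plin4 (-0.083 to 0.13), Lipe (-0.077 to 0.037), Pparg (-2.35 to 0.22), Cd36 (-0.73 to 0.82), Lpl (-0.46 to 0.66), Scd2 (-0.28 to 0.0099), Thrsp (-0.60 to 1.30) and Lipa (-0.12 to 0.65). When 1 array was left out, the count of genes past the threshold over all genes ranged from 0 to 17 (17 without casein 2, no member among them), the members with groups that did not overlap from 10 to 18 higher and from 3 to 13 lower, the median of adipocyte-restricted members from -0.26 to 0.97 and that of general lipid members from 0.018 to 0.28. The list medians ranged over -0.12 to 0.35 for other adipocyte genes, -0.47 to -0.012 for brown and beige fat, 0.037 to 0.36 for regulators, -0.43 to -0.053 for synthesis and 0.042 to 0.21 for droplet, lipase and uptake genes. With the mean of all probe sets, 5 members were lower with groups that did not overlap, Cd36 and Scd1 differed by -0.0082 and 0.024, and the medians of the brown fat and regulator lists were -0.098 and 0.082. With the probe set of the largest spread Cd36 and Lpl differed by -0.069 and -0.0084. With no filter the brown fat median was -0.0082, and with a filter at the 60th percentile, which tests fewer genes, the medians of other adipocyte genes and regulators were -0.22 and 0.080. The cause of these changes was not tested further. Widening the adipocyte class by 8 genes gave a median of 0.35. With the replicate number as a block, the members past the threshold were 0. The block does not enter the overlap of groups, so the counts of 10 higher and 3 lower could not change. The deviations of same-numbered arrays correlated at -0.022 over genes, and the block changed no test call.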
